A study of Mus musculus with 4 samples.

Results

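The genes of the proteasome subunits were examined in messenger RNA of LSK cells, the mouse bone marrow cells that lack lineage markers and carry Sca1 and Kit, in which blood stem cells and multipotent progenitors are found. Members were the rows of the deposited gene count table whose symbol begins with Psma, Psmb, Psmc or Psmd followed by a digit, leaving out the immunoproteasome genes Psmb8, Psmb9 and Psmb10. The rule found 37 genes of 24421. By their known roles, 31 of the 37 encode constitutive subunits, and 6 do not: the testis subunit gene Psma8, the thymus subunit gene Psmb11, the assembly chaperone genes Psmd5, Psmd9 and Psmd10, and Psmc3ip, a meiotic recombination factor that only shares the name pattern.

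The cells came from mice aged 13 to 15 months, of 2 genotypes. The wild-type (WT) group had 2 libraries. The p53R248W/+ group, with 1 mutant allele of the tumour suppressor p53 that carries the missense change R248W in the DNA-binding domain, also had 2. No treatment is named in the labels, which do not say either whether the 2 libraries of a genotype came from separate or pooled animals, nor how the allele was made. P-values here can then speak only to library-to-library spread, possibly technical.

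The proteasome is the large protease that degrades proteins tagged with ubiquitin. Its core particle is a barrel of outer alpha rings, which gate the entry, and inner beta rings, which hold the catalytic sites. A regulatory particle caps the barrel. Its base contains a ring of ATPases that unfold the substrate, and its base and lid contain non-ATPase subunits that bind, deubiquitinate and position it. In blood stem cells, proteasome activity sets the levels of short-lived proteins such as p53 itself, cyclins and CDK inhibitors. Proteasome subunit genes are known to be transcribed in concert, and the transcription factor Nfe2l1 binds antioxidant response elements in their promoters when proteasome activity falls short.

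The promoters of 3 of the 5 members that hold the C form of that element's core, TGACNNNGC, are shown. Psmb5 encodes the chymotrypsin-like catalytic subunit, Psmb6 the caspase-like catalytic subunit, and Psmd12 a lid subunit whose gene was the only member above WT in both p53R248W/+ libraries. Each is the run of 250 bases before the annotated start, 5′ to 3′ on the gene's strand, from RefSeq on build GRCm38.p6. The regions are chr14:54617996-54618245 on the minus strand for Psmb5, chr11:70525107-70525356 on the plus strand for Psmb6 and chr11:107479278-107479527 on the plus strand for Psmd12. Capitals mark matches to TGACNNNGC, TGAGNNNGC or CCGGAAGT on either strand.
Psmb5: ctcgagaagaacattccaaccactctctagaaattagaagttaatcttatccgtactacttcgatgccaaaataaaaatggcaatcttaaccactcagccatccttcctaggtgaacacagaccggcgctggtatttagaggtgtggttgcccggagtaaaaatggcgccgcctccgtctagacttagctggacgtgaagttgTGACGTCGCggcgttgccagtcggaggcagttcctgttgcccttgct
Psmb6: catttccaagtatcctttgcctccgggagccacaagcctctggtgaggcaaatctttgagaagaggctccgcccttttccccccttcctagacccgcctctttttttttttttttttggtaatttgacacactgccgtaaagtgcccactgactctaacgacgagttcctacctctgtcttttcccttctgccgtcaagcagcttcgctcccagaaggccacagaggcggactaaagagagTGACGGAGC
Psmd12: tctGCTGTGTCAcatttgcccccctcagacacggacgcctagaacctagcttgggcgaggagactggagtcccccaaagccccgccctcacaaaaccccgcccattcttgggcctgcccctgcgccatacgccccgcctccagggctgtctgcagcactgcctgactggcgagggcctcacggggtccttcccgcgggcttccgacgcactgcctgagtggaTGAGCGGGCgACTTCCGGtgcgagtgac
The Psmb5 match lies 47 to 39 bases before the start, and the Psmb6 match 9 to 1 bases before it. The Psmd12 promoter holds TGACNNNGC on the opposite strand, 247 to 239 bases before the start. Near the start it holds TGAGNNNGC at 28 to 20 bases and the Ets core CCGGAAGT, on the opposite strand, at 18 to 11 bases.

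RefSeq promoter windows, 250 bases before to 50 after the start, were matched by symbol for 30 of the 37 members. A set of 8 motifs was searched on both strands, and the set was chosen with the matches in view. The C form of the antioxidant response element core, TGACNNNGC, was held by 5 of the 30 members (16.7%), by 17.2% of the tested genes with a window and by 14% of all 27025 genes in the promoter table. The G form, TGAGNNNGC, was held by 12 members (40%), 22.9% of tested genes and 19.8% of all. The Ets core CCGGAAGT was held by 6 members (20%), 8.88% of tested genes and 4.31% of all. The box CCAAT was held by 13 members (43.3%), 42.7% of tested genes and 41.1% of all. The YY1 core AAGATGGC was held by 3 members (10%), 5.22% of tested genes and 3.19% of all. The E box CACGTG was held by 2 members (6.67%), 11.7% of tested genes and 8.09% of all. The nuclear respiratory factor palindrome was held by 1 member (3.33%), 2.35% of tested genes and 1.07% of all. The cAMP response element TGACGTCA, which overlaps TGACNNNGC in its first letters, was held by 0 members (0%), 3.55% of tested genes and 2.03% of all. The member share was above the share of tested genes by the widest margin for TGAGNNNGC and CCGGAAGT, while for TGACNNNGC and CCAAT the shares were close. The members' windows had a median GC content of 58.2%, against 61.7% for tested genes. A match describes the letters only. The members lie on 16 chromosomes, with 7 on chromosome 11 and 5 on chromosome 2.

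Sequencing gave 12111126 to 14820759 counted reads per library. The sorted population was checked against its markers: Kit, which encodes a receptor by which LSK cells are defined, ranged over 911 to 1182 CPM (counts per 1000000 of the TMM-scaled library size), and Ly6a, which encodes Sca1, at 40.2 to 82.9 CPM. Erythroid markers summed to at most 1.33 CPM, with the haemoglobin genes Hba-a1, Hba-a2, Hbb-bs and Hbb-bt at 0 in all 4 libraries. The annotated spans of Hba-a1 and Hba-a2 overlap, and whether reads shared between such genes were counted is not known here, so these zeros are a weak check. The 6 B cell markers summed to 6.83 and 10.4 (WT) against 25.8 and 18.5 CPM (p53R248W/+), with Pax5 at 0 throughout. The 5 neutrophil markers found summed to 4.05 and 27.1 (WT) against 30.8 and 28.7 CPM (p53R248W/+), and the 5 mast cell and basophil markers to 33.5 and 25.9 (WT) against 30.2 and 56.6 CPM (p53R248W/+). The 5 T and NK cell markers summed to 68.9 and 76.5 (WT) against 82.2 and 65.7 CPM (p53R248W/+), with Cd3g at 0. Most of that sum was Klrb1c and Nkg7, while the T cell genes Cd3e and Cd3d were at 0 to 2.06 CPM. In bulk RNA, fewer cells of a type and less RNA per cell cannot be told apart.

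Proteasome genes were abundant and unequal in level. Levels between genes are given as CPM per kilobase of the exon length in the file, averaged over the 4 libraries. Of the 31 constitutive subunit genes, 30 lay above the median of all tested genes, 10.02 CPM per kilobase, and 26 above the upper quartile, 23.3 CPM per kilobase. Their own median was 48.1 CPM per kilobase. The 4 structural groups differed in how tightly their members' levels clustered. The 7 alpha ring genes spanned 47.4 (Psma7) to 84.9 (Psma5) CPM per kilobase, a 1.79-fold range. The 7 beta ring genes spanned 12.6 (Psmb3) to 81.4 (Psmb4), a 6.48-fold range. In an assembled ring the subunits are present in equal number. The 6 ATPase genes spanned 25.6 (Psmc4) to 58.5 (Psmc5), and the 11 non-ATPase genes 7.94 (Psmd3) to 75.97 (Psmd1). Of the 10 genes with the highest level per kilobase, 5 were alpha ring, 2 beta ring and 3 non-ATPase genes. The exon length in the file joins all annotated exons of a gene, so a gene with long or rarely used exons has a lower value on this scale. Some genes also have close processed pseudogenes, as Psmb3 does (97.1% identity over 615 bases). Whether reads shared with them were counted is not known here.

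**Figure D1:**
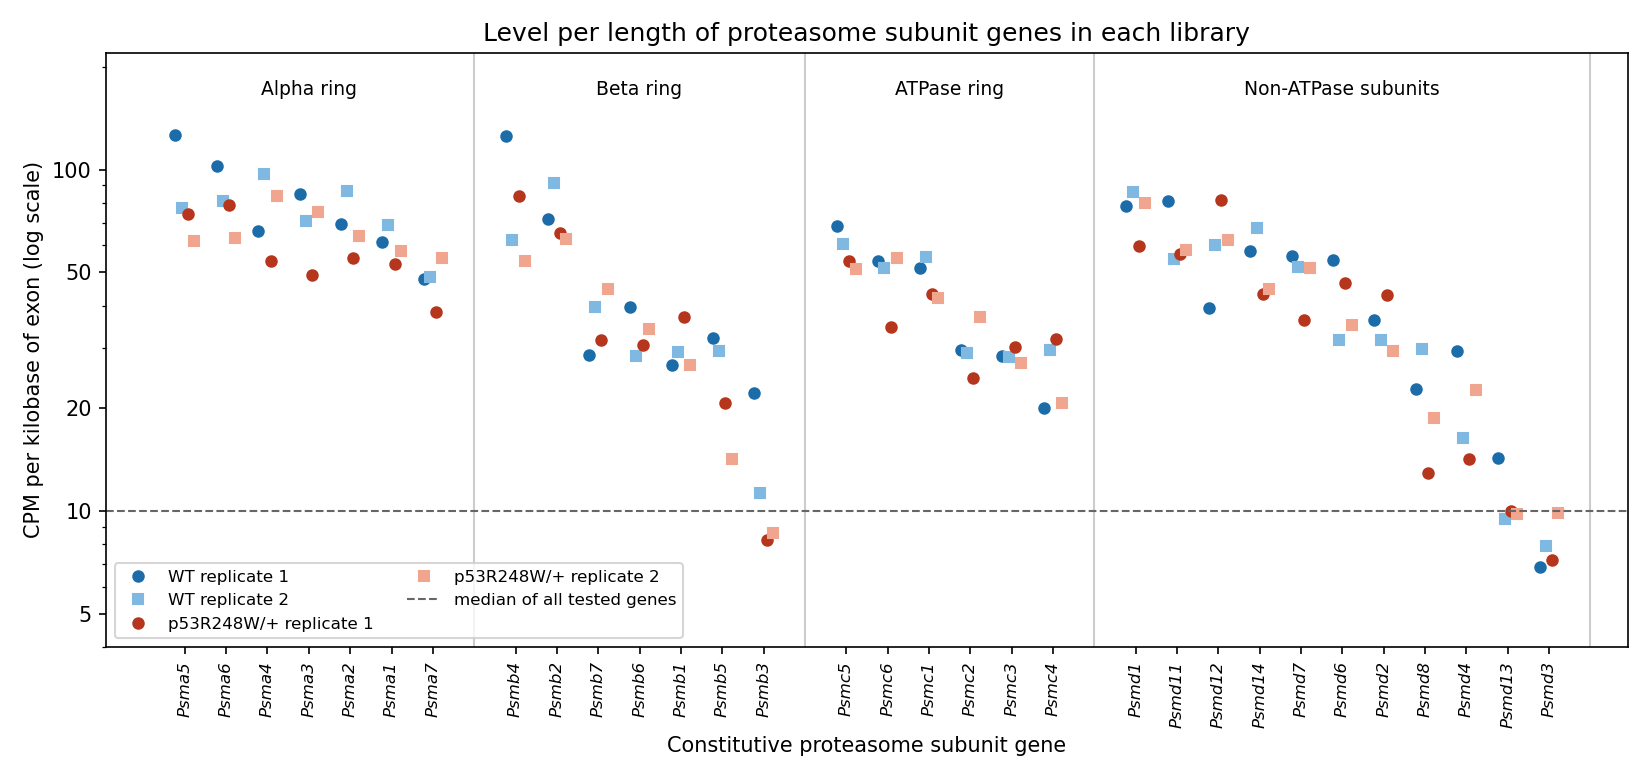
CPM per kilobase of exon (log axis) for the 31 constitutive subunit genes, grouped by structure and ordered by mean, with 1 point per library (blue WT, red p53R248W/+) and the median of all tested genes as a dashed line. The alpha ring genes sit between 47.4 and 84.9 on average, while Psmb3, Psmd13 and Psmd3 lie near the dashed line at 10.02.

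The lid subunit gene Psmd3 was at 6.85 and 7.87 (WT) against 7.19 and 9.85 CPM per kilobase (p53R248W/+). Psmb3, a non-catalytic beta subunit gene, was at 22.1 and 11.3 (WT) against 8.21 and 8.59 CPM per kilobase (p53R248W/+). At the high end, Psma5 was at 126 and 77.2 (WT) against 74.2 and 61.8 CPM per kilobase (p53R248W/+). The order of neighbours within a ring was often not resolved: the libraries of Psma6 (63.1 to 102 CPM per kilobase) and Psma4 (54.03 to 96.9) overlapped over most of their range, whereas every library of Psmd3 lay below every library of Psmd4, at 14.2 to 29.4 CPM per kilobase. Single counts ran from 76 for Psmb3 to 3990 for Psmd1, so the lowest members carry the widest counting error.

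The design holds 1 comparison, of heterozygous p53 mutant cells with WT cells of the same age range. No member passed the test. Most constitutive subunit genes were lower in p53R248W/+ cells by small amounts: of the 31, 23 had a log2 fold change (p53R248W/+ over WT) below 0 and 8 one above 0, and the median was -0.26. Over all 36 tested members, 25 were negative and 11 positive, with a median of -0.24, where 50% of all 13296 tested genes were negative, with a median of -8.8e-05. Of the 36, 12 (33.3%) had both p53R248W/+ values under both WT values, where 16.6% of all tested genes did. In the other direction there was 1 member, or 2.78%, where 16.9% of all tested genes lay higher in both. A log2 fold change below -0.2 was found for 20 of the 36 members, where 32.5% of all tested genes had one, and above 0.2 for 3 members, where again 32.5% of all tested genes had one. These counts were not tested as a list.

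The smallest adjusted p among the members was 0.824 in the edgeR quasi-likelihood test with Benjamini-Hochberg adjustment. That is also the smallest over all genes, of which 0 (0%) passed at an adjusted p of 0.05. No member reached an unadjusted p of 0.05 (the smallest, for Psma5, was 0.0504), where 3.01% of all tested genes did so on the higher side and 2.86% on the lower side. At that unadjusted level 1 member was found with each of median-ratio scaling, DESeq2, limma-voom, no filter, the stricter filter and the legacy method. Of all tested genes, 782 of 13296 reached it with median-ratio scaling, 618 of 13296 with limma-voom and 638 of 13296 with the legacy method. The counts were 804 of 16498 with no filter, 605 of 10714 with the stricter filter and 945 genes with DESeq2. With limma-voom 0 members passed, and with DESeq2 0 members passed of the 13 genes that DESeq2 called. The 95% interval of the fold change held 0 for all 36 members. It lay within a 2-fold change in either direction for 20 of the 36, and for 4581 of all 13296 tested genes. Without WT replicate 1 the median of the 36 was -0.13, beside 0.027 for all genes tested in that fit.

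**Figure D2:**
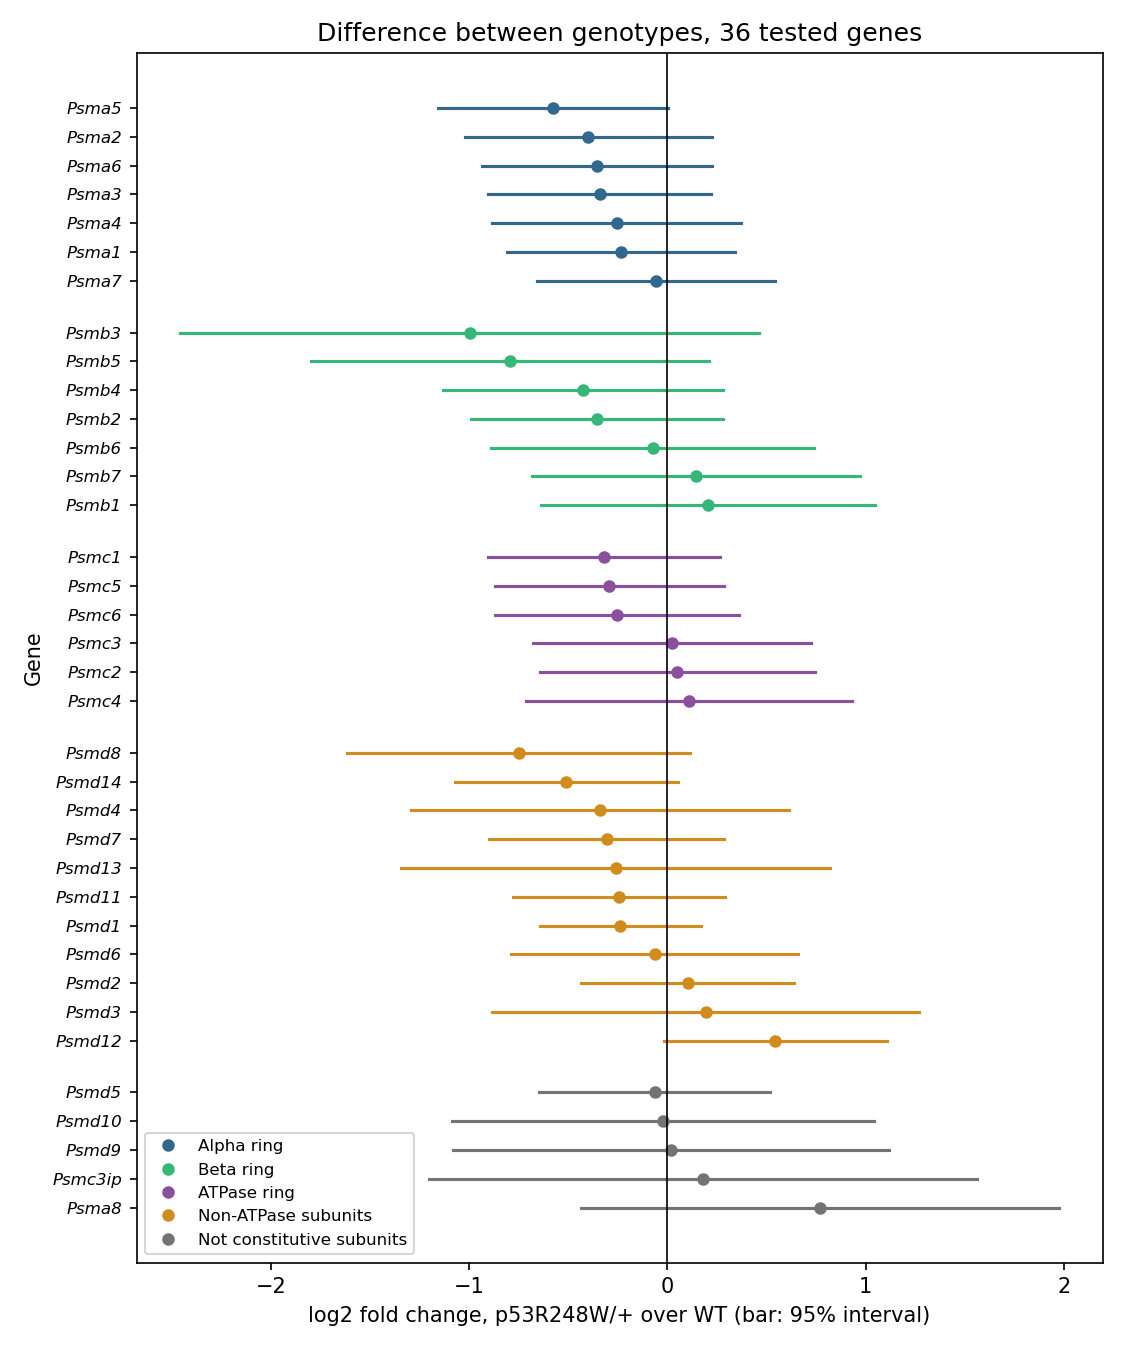
Log2 fold change of p53R248W/+ over WT for the 36 tested genes, grouped by structure, with 95% intervals as bars. All 7 alpha ring points lie left of 0 and Psmd12 is the constitutive subunit gene farthest to the right, at 0.54, while every bar crosses 0.

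In the alpha ring, all 7 log2 fold changes were negative. Their median was -0.34, and 4 of the 7 lay lower in both p53R248W/+ libraries, where 16.6% of all tested genes did. The summed level of the ring was 668 and 627 (WT) against 478 and 557 CPM (p53R248W/+), so both p53R248W/+ libraries lay under both WT libraries. The sums of the other structural groups lay apart likewise. They were 320 and 269 (WT) against 260 and 229 CPM (p53R248W/+) for the beta ring. For the ATPase ring they were 377 and 381 against 327 and 355 CPM, and for the non-ATPase genes 934 and 903 against 820 and 852 CPM, in the same order. Psma5 (mm10 chromosome 3, 108256926 to 108279952, plus strand, 9 exon blocks over 1217 bases) had the lowest value of the ring and the smallest unadjusted p of all members. It was at 154 and 93.99 CPM with the WT genotype, against 90.2 and 75.2 CPM with p53R248W/+, or 124 ± 42.3 for WT against 82.7 ± 10.7 CPM for p53R248W/+ (mean ± SD, n = 2). Its log2 fold change was -0.58 ± 0.27 (SE; adjusted p = 0.824, edgeR quasi-likelihood), and its 95% interval ran from -1.16 to 0.0011. WT replicate 1 stood above the other 3 libraries, and without it the log2 fold change was -0.18. Psma2 was at 65.8 and 82.1 CPM with the WT genotype, against 52.3 and 60.5 CPM with p53R248W/+, with no overlap between genotypes and a log2 fold change of -0.40 ± 0.30 (SE). Psma6 was at 102 and 80.5 (WT) against 78.8 and 62.9 CPM (p53R248W/+), and Psma1 at 76.9 and 86.3 (WT) against 66.6 and 72.4 CPM (p53R248W/+). In both the gap between the genotypes was narrow.

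The remaining alpha ring genes overlapped between genotypes. Psma3 was at 121 and 101 (WT) against 69.8 and 107 CPM (p53R248W/+), so only p53R248W/+ replicate 1 lay apart. Psma4, whose product helps to close the gate of the barrel with its tail, was at 72.5 and 106 (WT) against 59.2 and 92.1 CPM (p53R248W/+), with each replicate 2 above its replicate 1. Psma7 showed the smallest difference of the ring, at 76.2 and 77.2 (WT) against 61.04 and 87.6 CPM (p53R248W/+) and a log2 fold change of -0.059 ± 0.29 (SE).

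Beta ring genes were mixed in sign. Of the 7, 5 had a log2 fold change under 0 and 2 one over 0, with a median of -0.36. Lower in both p53R248W/+ libraries were 3 of the 7, where 16.6% of all tested genes were. Psmb3 had the lowest value of all members, -0.997 ± 0.69 (SE; adjusted p = 0.856, edgeR quasi-likelihood test), at 16.2 and 8.28 CPM with the WT genotype, against 6.003 and 6.28 CPM with p53R248W/+. Its interval was the widest of all members, from -2.46 to 0.46, on 76 to 232 counts. WT replicate 2 was closer to the p53R248W/+ libraries than to WT replicate 1. Without WT replicate 1 its log2 fold change was -0.43, and Psmd8, at -0.93, was then the lowest member. Psmb2 was at 60.7 and 77.7 (WT) against 55.1 and 52.9 CPM (p53R248W/+), without overlap. Psmb4, the most abundant gene of the ring per kilobase, was at 119 and 58.99 (WT) against 79.7 and 51.4 CPM (p53R248W/+), so both replicates 1 lay above both replicates 2, and its log2 fold change of -0.42 was 0.17 without WT replicate 1. Psmb1 had the highest value of the ring, 0.20 ± 0.40 (SE), at 27.8 and 30.2 (WT) against 38.4 and 27.8 CPM (p53R248W/+).

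The estimates for the 3 catalytic subunit genes of the beta ring differed in sign, with intervals that overlapped. Psmb5 (mm10 chromosome 14, 54614120 to 54617995, minus strand, 3 exon blocks over 871 bases), whose product cleaves after hydrophobic residues and is the main target of proteasome inhibitors such as bortezomib, was at 28.04 and 25.7 CPM with the WT genotype, against 18.1 and 12.4 CPM with p53R248W/+. The genotypes did not overlap, and the mean was 26.9 ± 1.67 for WT against 15.2 ± 4.02 CPM for p53R248W/+ (mean ± SD, n = 2). The log2 fold change was -0.79 ± 0.48 (SE; adjusted p = 0.835, edgeR quasi-likelihood test), or 1.74-fold lower in the fit, with an interval from -1.80 to 0.21, and it ran from -1.12 to -0.57 when single libraries were left out. Of its 871 exon bases, 109 are shared with the microRNA gene Mir686. Psmb6, the caspase-like subunit gene, was at 40.9 and 29.5 CPM with the WT genotype, against 31.8 and 35.4 CPM with p53R248W/+, with overlap and a log2 fold change of -0.075 ± 0.39 (SE). Psmb7, the trypsin-like subunit gene, was at 27.8 and 38.4 CPM with the WT genotype, against 30.6 and 43.4 CPM with p53R248W/+, also with overlap, at 0.14 ± 0.39 (SE). The intervals were from -0.89 to 0.74 for Psmb6 and from -0.68 to 0.97 for Psmb7. With single libraries left out, the log2 fold change ran from -0.28 to 0.18 for Psmb6 and from -0.11 to 0.41 for Psmb7. Differences between these 3 fold changes were not tested.

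Each catalytic subunit has an immunoproteasome counterpart that replaces it in newly built core particles of blood cells and under interferon: Psmb8 for Psmb5, Psmb9 for Psmb6 and Psmb10 for Psmb7. Transcripts of Psmb8 and Psmb9 exceeded those of their constitutive counterparts in all 4 libraries, and Psmb10 transcripts were below those of Psmb7 in all 4. Psmb5 has a processed pseudogene of 98.9% identity over 796 bases, and whether reads shared with it were counted is not known here. The immunoproteasome genes were not searched for such copies. As a ratio of CPM per kilobase, Psmb8 over Psmb5 was 2.33 and 3.55 (WT) against 4.63 and 4.51 (p53R248W/+). Psmb9 over Psmb6 was 2.07 and 2.75 (WT) against 3.97 and 3.0 (p53R248W/+), and Psmb10 over Psmb7 was 0.368 and 0.318 (WT) against 0.427 and 0.371 (p53R248W/+). For each of the 3 pairs both p53R248W/+ ratios lay above both WT ratios, by a margin of 0.371 against 0.368 at the closest point of the Psmb10 pair. How often ratios of other gene pairs separate in this way was not computed. Of single tested genes, 16.9% lay higher and 16.6% lower in both p53R248W/+ libraries. In the first pair Psmb8 overlapped between genotypes and Psmb5 was lower. In the other pairs Psmb9 and Psmb10 were higher, while Psmb6 and Psmb7 overlapped. With 2 libraries against 2 the exact two-sided permutation test cannot give a p below 0.33, so the ratios are a description, and they were computed after the levels had been seen. The counterparts had these levels. Psmb8 was at 91.6 and 128 (WT) against 117 and 78.5 CPM (p53R248W/+), with overlap (log2 fold change -0.15 ± 0.27, SE). Psmb9 was at 65.8 and 63.1 (WT) against 98.3 and 82.5 CPM (p53R248W/+), without overlap, and its log2 fold change was 0.49 ± 0.27 (SE; adjusted p = 0.825, edgeR quasi-likelihood test). Psmb10 was at 13.4 and 15.99 (WT) against 17.1 and 21.1 CPM (p53R248W/+), without overlap (0.37 ± 0.51, SE).

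**Figure D3:**
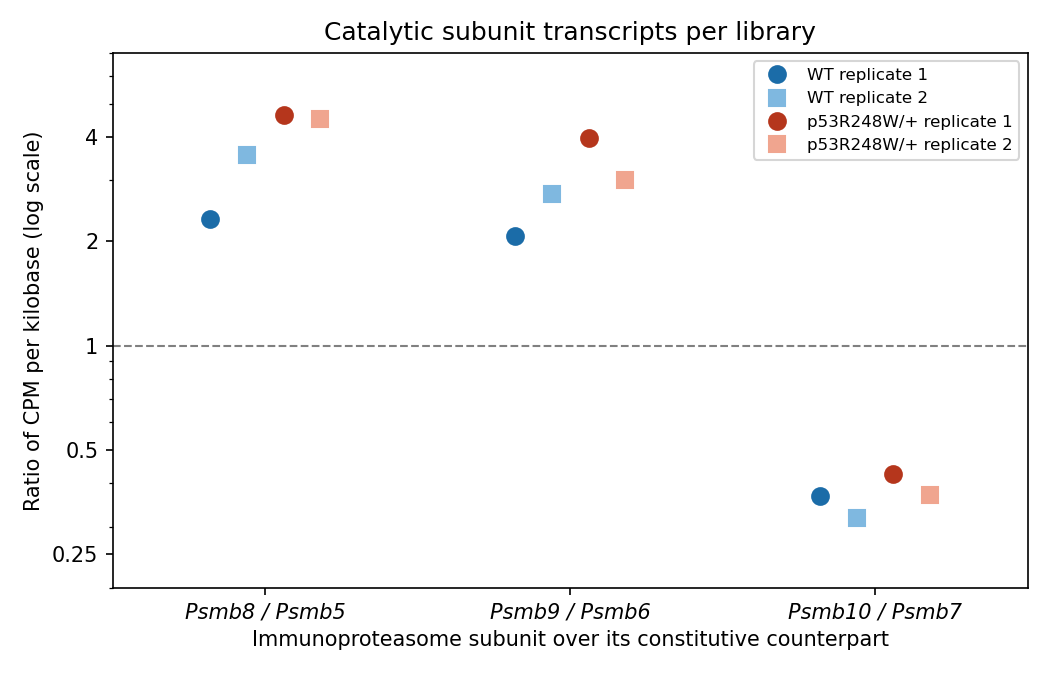
Ratio of CPM per kilobase (log axis) of each immunoproteasome subunit gene over its constitutive counterpart, 1 point per library (blue WT, red p53R248W/+), with equality as a dashed line. Psmb8 over Psmb5 and Psmb9 over Psmb6 lie above 2 in every library, and Psmb10 over Psmb7 lies at 0.318 to 0.427.

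ATPase ring genes showed the smallest differences of the 4 structural groups by median, -0.12, with 3 negative and 3 positive values. Psmc1 had the lowest, -0.32 ± 0.28 (SE), at 76.7 and 82.7 CPM with the WT genotype, against 64.7 and 62.9 CPM with p53R248W/+. Psmc5 was at 87.5 and 77.3 (WT) against 68.9 and 65.4 CPM (p53R248W/+), or -0.29 ± 0.28 (SE). These were the 2 ATPase genes of 6 without overlap between genotypes, both lower in p53R248W/+, where 16.6% of all tested genes lay lower without overlap. Psmc6 was at 84.5 and 80.6 (WT) against 54.03 and 86.1 CPM (p53R248W/+), where p53R248W/+ replicate 1 alone lay low. Psmc3 was nearly level over the libraries, at 46.4 and 46.2 (WT) against 49.6 and 44.3 CPM (p53R248W/+), and Psmc2 was at 52.9 and 51.8 (WT) against 43.6 and 66.1 CPM (p53R248W/+), with the p53R248W/+ libraries on either side of WT. Psmc4 had the highest value, 0.11 ± 0.39 (SE), at 28.7 and 42.5 (WT) against 45.8 and 29.8 CPM (p53R248W/+), with 1 low and 1 high library in each genotype. All 6 intervals lay within a 2-fold change in either direction, as did those of 4581 of all 13296 tested genes.

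Of the 11 non-ATPase subunit genes, 8 had a log2 fold change under 0 and 3 one over 0. The median was -0.24. Psmd14 encodes the lid's deubiquitinase, which removes the ubiquitin chain before the substrate enters. It lies on mm10 chromosome 2, 61711694 to 61800376, plus strand, 12 exon blocks over 1541 bases, and was at 88.9 and 104 CPM with the WT genotype, against 66.8 and 68.9 CPM with p53R248W/+, or 96.6 ± 10.8 for WT against 67.8 ± 1.49 CPM for p53R248W/+ (mean ± SD, n = 2). The p53R248W/+ libraries lay close together and under both WT libraries. The log2 fold change was -0.51 ± 0.27 (SE; adjusted p = 0.825, edgeR quasi-likelihood), and its interval ran from -1.07 to 0.051. The fold change was from -0.62 to -0.38 with single libraries left out. Psmd7, the partner of Psmd14 in the lid, was at 89.4 and 82.9 CPM with the WT genotype, against 58.01 and 82.6 CPM with p53R248W/+. Its genotypes did not overlap by a narrow margin, since p53R248W/+ replicate 2 was almost level with WT replicate 2. Psmd8, a further lid subunit gene, had the lowest value of the group, -0.75 ± 0.41 (SE; adjusted p = 0.825, edgeR quasi-likelihood test), at 34.4 and 45.1 CPM with the WT genotype, against 19.6 and 28.3 CPM with p53R248W/+.

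Psmd12 (mm10 chromosome 11, 107479528 to 107498036, plus strand, 11 exon blocks over 1723 bases), a lid subunit gene, lay on the other side. It was at 67.6 and 104 CPM with the WT genotype, against 141 and 108 CPM with p53R248W/+, or 85.7 ± 25.7 for WT against 124 ± 23.6 CPM for p53R248W/+ (mean ± SD, n = 2). Both p53R248W/+ libraries lay above both WT libraries, by a narrow margin for WT replicate 2. The log2 fold change was 0.54 ± 0.27 (SE; adjusted p = 0.824, edgeR quasi-likelihood), and its interval ran from -0.020 to 1.11. It was 0.27 without WT replicate 1 and 0.89 without WT replicate 2. The next highest log2 fold change of a constitutive subunit gene was that of Psmb1, at 0.20.

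The remaining non-ATPase genes overlapped between genotypes. Of the base scaffold genes, Psmd1 was at 254 and 279.9 (WT) against 194 and 261 CPM (p53R248W/+), with a log2 fold change of -0.24 ± 0.19 (SE), and Psmd2 at 111 and 97.01 (WT) against 131 and 89.9 CPM (p53R248W/+), with a log2 fold change of 0.10 ± 0.25 (SE). The interval of Psmd1, from -0.64 to 0.17, was the narrowest of all members. Psmd4, a ubiquitin receptor of the base, was at 39.5 and 21.95 (WT) against 19.1 and 30.4 CPM (p53R248W/+), with WT replicate 1 apart from WT replicate 2. The lid genes Psmd11, Psmd6, Psmd13 and Psmd3 had log2 fold changes of -0.24, -0.065, -0.26 and 0.19, with SE of 0.25 to 0.51. For Psmd11, at 141 and 95.5 (WT) against 98.4 and 102 CPM (p53R248W/+), and for Psmd13, at 22.3 and 14.8 (WT) against 15.6 and 15.3 CPM (p53R248W/+), WT replicate 1 alone lay high.

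The 5 tested members that are no constitutive subunits had a median log2 fold change of 0.018. Psmb11, the beta subunit of thymic epithelium, had 0 counts in all libraries, which allows up to 0.248 CPM by a floor of 3 counts in the shallowest library, and it was the only member that missed the filter on low counts. Psma8, the alpha subunit of male germ cells, was counted at 8.58 and 19.4 (WT) against 33.7 and 12.3 CPM (p53R248W/+), on 123 to 499 reads. Its log2 fold change of 0.77 ± 0.57 (SE) turned to -0.19 once p53R248W/+ replicate 1, its highest library, was left out. A gene count does not show which exons its reads lie in. The base assembly chaperone genes showed little difference: Psmd5 had -0.063 ± 0.28 (SE), Psmd9 0.018 ± 0.52 (SE) and Psmd10, which encodes gankyrin, -0.022 ± 0.51 (SE). Psmd9 and Psmd10 were at 14.3 to 17.9 CPM in every library, with intervals as wide as from -1.08 to 1.12 for Psmd9. Psmc3ip, which is no proteasome gene, was at 4.95 and 15.4 (WT) against 12.7 and 10.1 CPM (p53R248W/+) and shares 67 exon bases with Mlx.

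Single libraries of a genotype differed from each other by more than the genotype means did. A mean of 2 libraries varies less than 1 library, so these are unlike measures. The median absolute log2 difference over the 36 members was 0.29 between the WT libraries and 0.42 between the p53R248W/+ libraries. Between the genotype means it was 0.24, where it was 0.31 over all tested genes. The signs between genotypes were split 25 to 11. Between the WT libraries the signs split with 19 of 36 being higher in replicate 1, and between the p53R248W/+ libraries 19 of 36 were higher in replicate 1. Over all tested genes these shares were 49.3% and 50.3%. Members measured in the same libraries are not independent replicates of a genotype, so the splits are a description. Relative to each gene's mean, the median of the 31 constitutive genes was 0.14 and 0.044 for WT replicates 1 and 2, against -0.14 and -0.089 for p53R248W/+ replicates 1 and 2, on the log2 scale. Of the 31 genes, 24 were below their mean in p53R248W/+ replicate 1 and 19 in replicate 2, against 9 and 12 in the WT libraries. The lowest library was p53R248W/+ replicate 1 for 13 genes and p53R248W/+ replicate 2 for 10, and a WT library for 4 each.

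**Figure D4:**
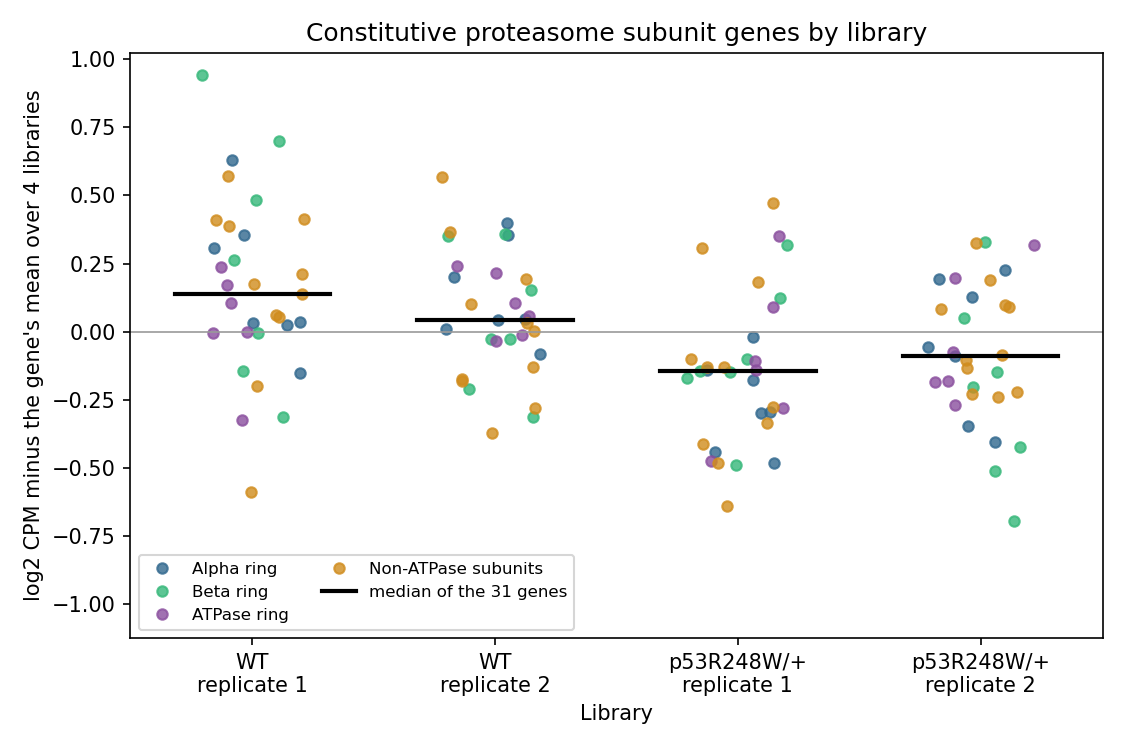
Log2 CPM of the 31 constitutive subunit genes minus each gene's mean over the 4 libraries, with 1 point per gene, coloured by structure, and the median as a black line. The medians lie at 0.14 and 0.044 in WT and at -0.14 and -0.089 in p53R248W/+, while the points of all 4 libraries overlap over most of their range.

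Other measures varied over the libraries beside the subunit genes. The summed level of 16 genes of dividing cells was 1939 and 3084 (WT) against 1516 and 2941 CPM (p53R248W/+). It was low in both replicates 1 and high in both replicates 2, an order that the proteasome medians did not follow. Gene by gene, 13 of the 16 had a log2 fold change below 0 and 3 one above 0, with a median of -0.25. Both p53R248W/+ libraries lay lower for 2 of the 16 (12.5%), where 16.6% of all tested genes did so. The summed level of 12 immediate early genes was 8922 and 5436 (WT) against 4206 and 4889.6 CPM (p53R248W/+), with the p53R248W/+ libraries lowest and WT replicate 1 highest, the same order over the 4 libraries as the proteasome medians. Of these 12 genes, 11 lay lower in both p53R248W/+ libraries, where 16.6% of all tested genes did. Of the 12, 8 were lower at an unadjusted p under 0.05, where 2.86% of all tested genes were, and 0 passed the adjusted threshold. The summed B cell markers, at low levels, were higher in both p53R248W/+ libraries, most of the sum being Cd79b, while Ebf1 and Cd79a overlapped between genotypes. The part of any of these in the proteasome values was not tested. Counting may also touch some members: 8 of the 37 have a processed pseudogene of at least 95% identity over at least 300 bases in GENCODE M21, namely Psma3, Psma4, Psma5, Psmb3, Psmb5, Psmc1, Psmd2 and Psmd11, and 4 of the 12 genes that were lower in both p53R248W/+ libraries are among them. The other 23 constitutive genes had a median log2 fold change of -0.24. Psma4 shares 45 exon bases with AY074887 on the opposite strand.

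Genes that work beside the subunits were split in sign, and 0 passed in the pathway lists given here, at an adjusted or an unadjusted p of 0.05 (edgeR quasi-likelihood test). Of 5 activator and inhibitor genes, 2 had a log2 fold change over 0 and 3 one under 0, and the median was -0.11. Psme1 and Psme2 encode the cap that pairs with the immunoproteasome, and were at 292 and 275 (WT) against 231 and 279 CPM (p53R248W/+) and at 27.4 and 36.96 (WT) against 29.1 and 37.5 CPM (p53R248W/+), with overlap in both. Psme3, which encodes a nuclear cap, had -0.23 ± 0.20 (SE), Psme4, which encodes the large single-chain activator, -0.11 ± 0.19 (SE) and the inhibitor gene Psmf1 0.15 ± 0.38 (SE). Of 5 core assembly chaperone genes, 4 were positive and 1 negative. Pomp, the maturation factor of the core, was at 102 and 127 (WT) against 138 and 124 CPM (p53R248W/+), with a log2 fold change of 0.19 ± 0.23 (SE). Psmg2 was at 33.96 and 25.7 (WT) against 22.7 and 24.5 CPM (p53R248W/+) and lower in both p53R248W/+ libraries, Psmg4 was at 2.58 and 4.98 (WT) against 10.2 and 7.10 CPM (p53R248W/+) and higher in both, Psmg1 had 0.010 ± 0.52 (SE) and Psmg3, at 11 to 62 counts, 0.43 ± 1.01 (SE).

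Of 14 matched genes for receptors, shuttles and associated proteins, 6 were positive and 8 negative. Adrm1, Shfm1, Uchl5 and Rad23b, 4 of the 14 (28.6%), were lower in both p53R248W/+ libraries, where 16.6% of all tested genes were. Shfm1 and Adrm1 encode further constituents of the regulatory particle whose symbols fall outside the name rule. Shfm1, the small lid protein also named Sem1, was at 20.4 and 21.6 (WT) against 10.99 and 17.8 CPM (p53R248W/+), with a log2 fold change of -0.57 ± 0.51 (SE), and Adrm1, a ubiquitin receptor, at 29.8 and 20.5 (WT) against 15.9 and 20.3 CPM (p53R248W/+), with a log2 fold change of -0.49 ± 0.47 (SE). Uchl5, the deubiquitinase that binds Adrm1, was at 121 and 125 (WT) against 92.4 and 114 CPM (p53R248W/+). Of the 10 regulators of proteasome gene transcription, 5 were positive and 5 negative, with a median of -0.011. Sel1l (10% of the list) was higher in both p53R248W/+ libraries, and Syvn1 and Vcp (20%) were lower in both. Over all tested genes these shares were 16.9% and 16.6%. Nfe2l1, the factor named above, was at 129.7 and 85.7 (WT) against 118 and 128 CPM (p53R248W/+), with overlap (0.19 ± 0.25, SE), and its relative Nfe2l2 at 203 and 185 (WT) against 234 and 165 CPM (p53R248W/+), with a log2 fold change of 0.051 ± 0.21 (SE). Of the enzymes that release and process Nfe2l1, Ddi2 had -0.059 ± 0.42 (SE), Ngly1 -0.076 ± 0.27 (SE) and Vcp -0.20 ± 0.19 (SE). Of the 6 genes for ubiquitin and its activation, 2 were positive and 4 negative, with a median of -0.050. The main activating enzyme gene Uba1 was at 552 and 513 (WT) against 499 and 508 CPM (p53R248W/+).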

How the data were processed

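The members and lists were chosen with earlier results of these data known. The authors deposited raw read counts per gene symbol for 24421 genes. The submitters' processing notes list build mm10 with STAR 2.7.10a, Subread 2.0.3 (featureCounts), FastQC 0.11.5 and edgeR 3.40.2. Strand use and the treatment of reads with several alignments are not given in the sources used here. Per the file headers, the deposited table also gives each gene's exon length in bases. Columns were matched to samples by genotype and number.

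filterByExpr (minimum count 10, minimum total 15) left 13296 genes. Counts were scaled by TMM and tested with edgeR 4.0.16 (glmQLFit with robust=TRUE and legacy=FALSE, glmQLFTest, R 4.3.3), two-sided, genotype as the only term, Benjamini-Hochberg adjustment over all tested genes. The threshold was an adjusted p of 0.05. The test was tried on simulated data. Intervals are at the 95% level. Floors (3 counts) cover counting error only. No 2 libraries agreed within sampling noise (chi-square per degree of freedom 26.0 to 59.4).

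Named were the catalytic genes, the extremes of each structural group, members at an unadjusted p under 0.05, members that are no constitutive subunit or missed the filter, and all genes of pathway lists of up to 5; further genes were named after their values were seen. Alternatives were median-ratio and total-count scaling, DESeq2 1.42.0, limma-voom (limma 3.58.1), no filter (at least 1 count), a replicate block by number, a stricter filter (mean of at least 5 CPM, and 1 CPM or more in 2 libraries), each library left out in turn and, chosen after seeing the data, the legacy quasi-likelihood method and the constitutive subunits without close pseudogenes. Pseudogenes were found with BLAST 2.17.0. Paaf1 and Ly6g were not matched and not analysed here.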

Additional observations from a re-analysis of the deposited data

How the results depend on the processing

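Over median-ratio scaling, total-count scaling, DESeq2, limma-voom, no filter, the stricter filter, the replicate block and the legacy method, all 288 log2 fold changes of the 36 members kept their sign and none passed the threshold. Their median ran from -0.24 to -0.23. Of all genes, DESeq2 called 13 (5 higher, 8 lower) against 0 in the edgeR quasi-likelihood test; the cause was not tested. With the replicate number as a block 0 genes passed and the members' median was -0.24. In that fit 1 of the 36 members was at an unadjusted p under 0.05, where 758 of all 13296 tested genes were. The numbers are not said to pair the libraries, and the deviations of WT replicate 1 and p53R248W/+ replicate 1 from their genotype means correlated at r = 0.0049 over 13296 genes.

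Leaving out single libraries mattered more. The members' median ran from -0.26 (without p53R248W/+ replicate 2) to -0.13 (without WT replicate 1). The median of all genes tested in those fits was -0.041 and 0.027, in the same order. Without WT replicate 2 the members' median was -0.19, beside 0.056 for all genes. Without p53R248W/+ replicate 1 it was -0.18, beside -0.040. Between 0 and 1 genes passed, the 1 without p53R248W/+ replicate 2. With a library fewer to separate, members lower in p53R248W/+ without overlap numbered 16 to 19 of 36, where 32% to 34.8% of all tested genes did so, and those higher 5 to 8, where 31.6% to 35.3% did. The sign held in all 4 such fits for 15 members, 14 negative (Psma1, Psma2, Psma3, Psma5, Psma6, Psmb2, Psmb3, Psmb5, Psmc1, Psmc5, Psmd1, Psmd7, Psmd8 and Psmd14) and 1 positive (Psmd12). For the other 21 it turned, and the log2 fold changes ran from -0.59 to 0.055 for Psma4, from -0.33 to 0.19 for Psma7, from -0.19 to 1.47 for Psma8, from -0.065 to 0.40 for Psmb1, from -0.84 to 0.17 for Psmb4, from -0.28 to 0.18 for Psmb6, from -0.11 to 0.41 for Psmb7, from -0.26 to 0.34 for Psmc2, from -0.066 to 0.10 for Psmc3, from -0.42 to 1.22 for Psmc3ip, from -0.26 to 0.42 for Psmc4, from -0.61 to 0.061 for Psmc6, from -0.10 to 0.068 for Psmd10, from -0.49 to 0.066 for Psmd11, from -0.52 to 0.066 for Psmd13, from -0.21 to 0.34 for Psmd2, from -0.035 to 0.42 for Psmd3, from -0.69 to 0.15 for Psmd4, from -0.35 to 0.15 for Psmd5, from -0.40 to 0.38 for Psmd6 and from -0.12 to 0.12 for Psmd9. The SE of the constitutive members ran from 0.19 for Psmd1, which had the highest counts, to 0.69 for Psmb3, which had the lowest.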
